A study of Vitis riparia with 12 samples.

Results

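A window on chromosome 3 between positions 730000 and 960000 holds 33 of the 29970 genes listed in each shoot tip library of the grapevine Vitis riparia. The members are all genes whose locus lies wholly inside the window, and all 33 carry identifiers of the stem VIT_03s0038g. The window has been described as a tandem array with SAUR-like genes. No gene names or sequences were used here for these identifiers, so that description was not checked, and each locus is called by its identifier. The genome build of the coordinates is not given in the sources used here. The members were chosen by position, but the window itself was selected on its FPKM in all 4 groups, which were already known. The calls given below therefore describe these loci and are not independent evidence of a direction.

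SAUR genes (small auxin-up RNA) are a large plant family whose transcripts often rise within minutes of auxin treatment. They are mostly short, usually lack introns and often lie in tandem arrays. In Arabidopsis several SAUR proteins inhibit phosphatases that restrain the plasma membrane proton pump, and so favour cell expansion in growing organs. In Vitis riparia, shortening days stop shoot elongation and lead to bud dormancy.

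The vines were of genotype PI588259 and 6 years old, and all began under a photoperiod of 15 h in 1 greenhouse. One set stayed at 15 h (long photoperiod, LD) and another moved to 13 h (short photoperiod, SD). Shoot tips of 4 nodes were taken after 7 and 21 days. Each of the 4 groups (LD7, LD21, SD7, SD21) has 3 libraries, and each library pools 5 vines. FPKM, the unit of the files, is a fragment count divided by the length of the transcript and the size of the library. It is meant to let levels be set side by side between loci, which holds only roughly for the short loci described below. FPKM totals ran from 982454 to 1106294 per library. The absolute depth is unknown, and relative to LD7 replicate 1 it was 1.00 to 1.58 in the others, highest in SD7 replicate 1. In whole shoot tips, fewer cells that express a gene and less RNA per cell cannot be told apart.

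Most loci of the window are short and closely spaced. The median locus length was 397 bp, against 2742 bp over all genes, and 17 of 33 loci were at most 400 bp long, against 5.30% of all genes. None of the 53 genes in the 230 kb on either side was that short. Locus length includes any intron, and with reads of 43 bp the FPKM of such short loci is uncertain. A run of 20 expressed loci lay within 58864 bp, in stretches separated by VIT_03s0038g01140 (876347 to 878337), which was listed at 0 in every library. The first run has 6 loci (858885 to 872380), with a median gap of 1428 bp between neighbours. The second run has 14 loci (880652 to 917748), with a median gap of 2470 bp. In the second run 12 of 14 loci were at most 400 bp long, and 5 had a length of exactly 289 bp, a length shared by 16 of all 29970 genes. The runs were set apart after their values were seen, and no silent locus marks the end of the second run. The next locus, VIT_03s0038g01310, is also expressed and follows after 3983 bp, less than the largest gap inside the second run (4053 bp). Statements below on all 20 loci of the runs rest on that choice of edge. Equal lengths side by side can mark near-identical copies, and how the authors' counting shared reads among such copies is not given in the sources used here, so the values of single loci in the runs are uncertain.

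Of the 33 loci, 27 were tested, having at least 1 FPKM in 3 or more libraries. The same 27 loci had a group mean of 5 FPKM or more. The other 6 loci lay at or near 0. VIT_03s0038g01010, VIT_03s0038g01020, VIT_03s0038g01060 and VIT_03s0038g01140 were listed at 0 in all 12 libraries. VIT_03s0038g00980 did not exceed 0.0849 FPKM and VIT_03s0038g01070 did not exceed 0.791 FPKM in any library. Apart from VIT_03s0038g01140, these loci follow each other between 783896 and 858394, just before the first run. These 6 loci and the 3 with the lowest group means among the 27 were named after their values were seen.

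**Figure D1:**
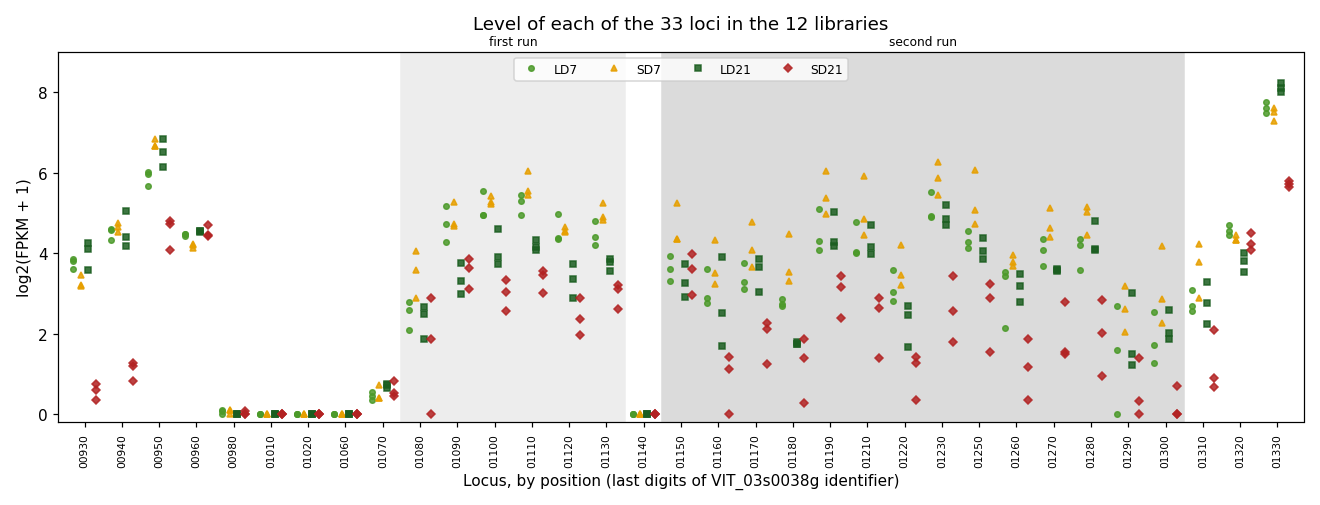
Level of each of the 33 loci on the log2(FPKM + 1) scale (vertical axis) in the 12 libraries, with loci in order of position (horizontal axis), 1 point per library and a colour and shape per group. Grey bands mark the first run of 6 loci and the second run of 14 loci, in which the SD7 libraries lie mostly highest and the SD21 libraries mostly lowest.

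By group mean of the sums, the runs were most abundant in SD7 and least abundant in SD21. Summed over the 14 loci of the second run, FPKM were 143, 170 and 234 in LD7 (replicates 1 to 3, as in every list below), 301, 491 and 240.1 in SD7, 136, 157 and 204 in LD21, and 54.4, 69.8 and 23.7 in SD21. The group means were therefore 183 ± 46.8 (SD, n = 3), 344 ± 131, 166 ± 34.6 and 49.3 ± 23.5 in that order. SD7 had the highest group mean in 19 of the 20 loci of the runs and SD21 the lowest in 18. Summed over the 6 loci of the first run, FPKM were 146, 120.0 and 177 in LD7, 167, 220.1 and 163 in SD7, 64.9, 58.5 and 83.3 in LD21, and 44.6, 53.0 and 27.7 in SD21. LD21 thus lay near LD7 in the second run and well below it in the first. In the first run the LD7 and SD7 sums overlapped. Without SD7 replicate 2 its SD7 mean was 1.12 times the LD7 mean instead of 1.24 times. No test was made of the sums or of the difference between the runs.

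The other 13 loci of the window summed to 337 ± 21.8 FPKM in LD7, 363 ± 22.4 in SD7, 447 ± 13.1 in LD21 and 119 ± 5.07 in SD21. The most abundant of them was VIT_03s0038g01330, given below. Over all 33 loci the sums were 651, 617 and 733 in LD7, 806, 1092 and 773 in SD7, 662, 650.4 and 734 in LD21, and 219, 245 and 164 in SD21. The SD21 libraries lay below every other library, and the SD7 libraries above every other library. Without VIT_03s0038g01330 the sums were 473 ± 72.5 FPKM in LD7, 714 ± 161 in SD7, 405 ± 29.1 in LD21 and 158 ± 40.6 in SD21.

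**Figure D2:**
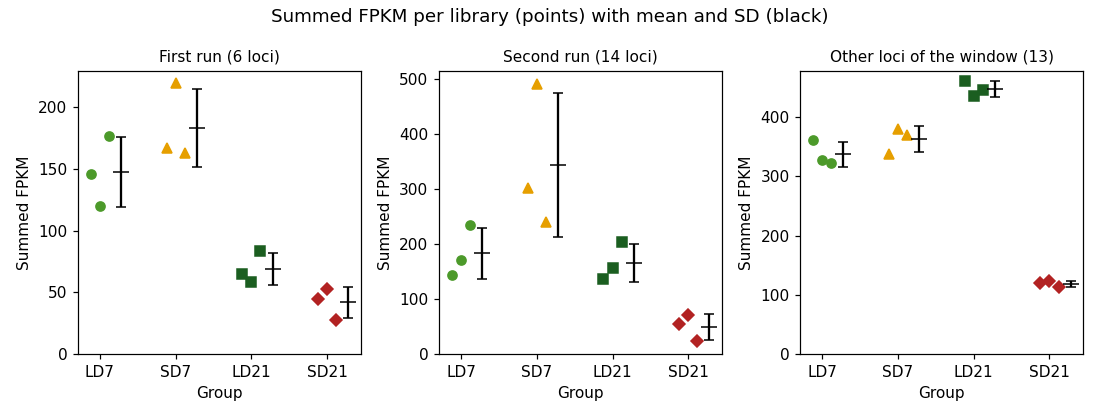
Summed FPKM (vertical axis, from 0) of the first run, the second run and the other 13 loci of the window, with 1 point per library in each group (horizontal axis) and the mean ± SD of the 3 libraries in black. SD21 is lowest in each panel, while LD21 lies near LD7 in the second run, below it in the first run and above it in the other loci.

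Single libraries stood apart within their groups in the same way at many loci. SD7 replicate 2 was the highest of all 12 libraries at 18 of the 29 loci above 0 in any library, 17 of them in the runs. The same count was not made over all genes, so it does not tell a trait of the window from one of the library. In the second run it was the highest of the SD7 libraries at 13 of 14 loci, at a median of 1.47 times the group mean, and SD7 replicate 3 was the lowest at 10. SD21 replicate 3 was the lowest library of its group at 12 of 14 loci of the second run, at a median of 0.357 times the group mean. The relative depths of these libraries were 1.04 for SD7 replicate 2 and 1.25 for SD21 replicate 3, inside the range of the others. The 10 most abundant genes of the whole library held 21.3% of the FPKM in SD21 replicate 3 and 16.2% to 17.4% in the other SD21 libraries. They held 4.81% to 5.85% in LD21, 8.48% to 9.05% in LD7 and 9.39% to 9.94% in SD7. The part of this share in the values of the window was not tested.

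At day 7 no locus of the window passed the test in SD7 against LD7, although most stood higher in SD7. The test was limma on log2(FPKM + 1) over all 21848 tested genes, with a call at a Benjamini-Hochberg adjusted p under 0.05, and fold changes are on that scale. It called 0 of 27 loci, against 0.833% of all tested genes, so the count of 0 is near that share and says little about the window. The lowest adjusted p in the window was 0.103 (limma), and 11 of 27 loci had an unadjusted p under 0.05, against 14.9% of all tested genes. Of the 27, 9 had such a p with SD7 the higher, against 6.23%. No alternative processing or left-out library gave a call at day 7, but these settings called few of the 21848 tested genes. They called 1 higher and 1 lower without LD7 replicate 1, 5 and 6 without SD7 replicate 2, and 84 and 124 without LD21 replicate 1. The fold change was above 0 at 23 of 27 loci, against 10000 of the 21848 tested genes. Its median was 0.74, against -0.03 over all tested genes. The 4 loci below 0 lay outside the runs, at VIT_03s0038g00930 (-0.47), VIT_03s0038g00960 (-0.27), VIT_03s0038g01320 (-0.20) and VIT_03s0038g01330 (-0.14). All 20 loci of the runs had a fold change above 0, with a median of 0.31 in the first and 0.81 in the second. They kept that sign with quantile normalization and median-ratio scaling. In the first run it was below its SE at VIT_03s0038g01120 (0.0035 ± 0.26, log2 ± SE), VIT_03s0038g01100 (0.15 ± 0.26) and VIT_03s0038g01090 (0.17 ± 0.28). Mean FPKM was higher in SD7 than in LD7 at 5 of 6 loci of the first run and all 14 of the second. At VIT_03s0038g01120 it was 22.9 in SD7 and 23.3 in LD7. The SD7 libraries lay wholly above the LD7 libraries at 10 of 27 loci, against 11.1% of all tested genes, and wholly below at 3, against 13.7%. The counts by sign, unadjusted p and overlap are not given without SD7 replicate 2.

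The lowest p-values at day 7 were those of a locus before the runs and of the first locus of the second run. VIT_03s0038g00950 (684 bp, 749715 to 750398) had 61.7, 50.1 and 63.1 FPKM in LD7, 99.4, 101 and 113 in SD7, 113, 90.5 and 68.9 in LD21, and 25.4, 27.0 and 15.9 in SD21. Its SD7 libraries lay above all LD7 libraries, with a log2 fold change of 0.83 ± 0.21 (SE). VIT_03s0038g01150 (664 bp, 880652 to 881315) had 8.98, 11.2 and 14.3 FPKM in LD7, 19.4, 36.7 and 19.4 in SD7, 6.50, 8.59 and 12.3 in LD21, and 14.8, 11.2 and 6.76 in SD21. Its day 7 groups did not overlap either (1.02 ± 0.32), while LD21 and SD21 did. Without SD7 replicate 2 the second run summed to 271 FPKM in SD7, 1.48 times the LD7 mean instead of 1.88 times.

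By day 21 most expressed loci of the window were lower under the short photoperiod. In SD21 against LD21, 20 of 27 loci were called lower, against 43.7% of all tested genes, and 1 was called higher, against 24.6%. Of the 20, 17 were at least 2-fold lower, against 26% of all tested genes, and 6 were at least 4-fold lower, against 9.23%. The median fold change was -1.53 on the log2 scale, against -0.30 over all tested genes. In the first run 4 of 6 loci were called lower with a median of -0.80, and in the second 11 of 14 with a median of -1.64. The libraries of SD21 lay wholly below those of LD21 at 20 of 27 loci, against 44.5% of all tested genes. With quantile normalization, which moves the median of all genes to 0.00059, or median-ratio scaling, which moves it to -0.02, 18 loci were lower and 2 higher. Of all tested genes 33.2% were then called lower and 33.4% higher with quantile normalization, and 33.9% and 33.2% with median-ratio scaling. The calls lost under both scalings were those of VIT_03s0038g01120 and VIT_03s0038g01130, and that gained was VIT_03s0038g00960.

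**Figure D3:**
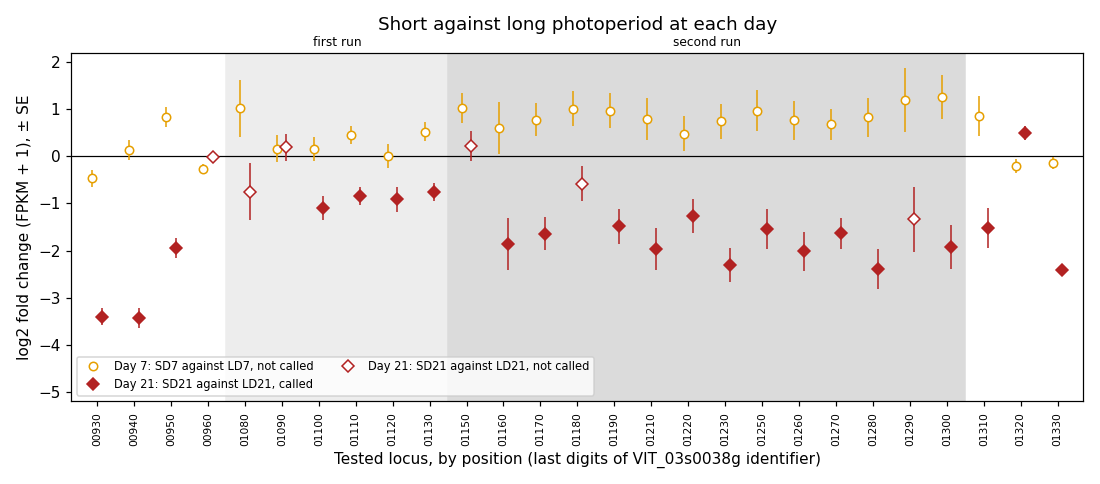
Log2 fold change of FPKM + 1 (vertical axis, ± SE) for SD7 against LD7 (circles) and SD21 against LD21 (diamonds) at the 27 tested loci in order of position (horizontal axis), with filled symbols for loci called by limma. No circle in the grey runs lies below 0 (VIT_03s0038g01120 is at 0.0035) and none is filled. Of the 20 diamonds there, 15 are filled and all of those lie below 0.

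The largest fall at day 21 was at a pair of neighbours before the runs. VIT_03s0038g00940 (762 bp, 738126 to 738887) had 22.9, 23.4 and 18.9 FPKM in LD7, 23.99, 21.8 and 25.9 in SD7, 32.0, 17.1 and 20.0 in LD21, and 1.42, 0.771 and 1.31 in SD21. VIT_03s0038g00930 (886 bp, 736434 to 737319) had 13.4, 11.1 and 13.1 FPKM in LD7, 8.10, 10.0 and 8.23 in SD7, 17.97, 11.1 and 16.1 in LD21, and 0.698, 0.526 and 0.283 in SD21. Every SD21 library of both loci was far below the other 9 libraries, with log2 fold changes of -3.43 ± 0.21 and -3.40 ± 0.18 (SE) against LD21. VIT_03s0038g00950, the next locus, was also lower in SD21 (-1.95 ± 0.21). VIT_03s0038g00960 (4945 bp, 755322 to 760266), next to it, stood at 21.2, 20.4 and 21.3 FPKM in LD7, 17.8, 16.5 and 17.3 in SD7, 22.4, 22.3 and 22.0 in LD21, and 25.1, 20.5 and 20.9 in SD21. Its LD21 and SD21 libraries overlapped (-0.01 ± 0.10), and it was called higher with either rescaling (0.26 with quantile normalization and 0.32 with median-ratio scaling).

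In the second run the most abundant locus was VIT_03s0038g01230 (289 bp, 900917 to 901205), with 28.9, 29.2 and 44.9 FPKM in LD7, 56.8, 75.1 and 42.8 in SD7, 25.1, 27.9 and 35.4 in LD21, and 4.90, 9.88 and 2.49 in SD21. It had a log2 fold change of -2.31 ± 0.36 (SE) in SD21 against LD21, and the SD21 libraries were below all others. The 4 other loci of 289 bp followed the same order of SD7 above LD7 and LD21, with SD21 lowest. VIT_03s0038g01250 (903281 to 903569) had 16.5, 18.2 and 22.4 FPKM in LD7, 32.7, 66.2 and 25.3 in SD7, 15.7, 13.6 and 19.6 in LD21, and 6.36, 8.42 and 1.91 in SD21. VIT_03s0038g01210 (894853 to 895141) had 15.4, 15.2 and 26.2 FPKM in LD7, 27.8, 59.0 and 20.9 in SD7, 14.7, 25.2 and 16.8 in LD21, and 6.37, 5.28 and 1.64 in SD21. In both, SD21 was below every other library, and 1 SD7 library overlapped LD7 only at VIT_03s0038g01210.

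The less abundant loci of 289 bp lie at the start of the second run. VIT_03s0038g01160 (883688 to 883976) had 5.78, 6.34 and 11.1 FPKM in LD7, 10.3, 19.1 and 8.37 in SD7, 4.76, 2.25 and 13.9 in LD21, and 0, 1.17 and 1.68 in SD21. VIT_03s0038g01170 (885396 to 885684) had 7.70, 12.6 and 8.73 FPKM in LD7, 15.8, 26.5 and 11.5 in SD7, 7.20, 13.5 and 11.7 in LD21, and 3.82, 3.32 and 1.36 in SD21. Both had SD21 libraries wholly below LD21, with log2 fold changes of -1.86 ± 0.55 (SE) and -1.65 ± 0.35, although the LD21 libraries of the former were widely spread.

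Loci of 291 bp were VIT_03s0038g01220 (897890 to 898180) and VIT_03s0038g01260 (905891 to 906181). VIT_03s0038g01220 stood at 7.22, 6.07 and 10.9 FPKM in LD7, 8.27, 17.5 and 9.92 in SD7, 2.19, 5.44 and 4.55 in LD21, and 1.41, 1.66 and 0.275 in SD21. VIT_03s0038g01260 stood at 3.44, 10.5 and 9.86 FPKM in LD7, 14.5, 11.9 and 12.8 in SD7, 5.94, 10.2 and 8.10 in LD21, and 1.27, 2.69 and 0.275 in SD21. Both fell in SD21 against LD21 (-1.27 ± 0.37 and -2.01 ± 0.41, log2 ± SE) without overlap. VIT_03s0038g01260 was the only locus of the second run whose highest library was not SD7 replicate 2.

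VIT_03s0038g01190, VIT_03s0038g01280 and VIT_03s0038g01270, which are longer, also had the highest group mean in SD7 and the lowest in SD21. VIT_03s0038g01190 (375 bp, 892008 to 892382) had 18.7, 16.0 and 33.1 FPKM in LD7, 40.0, 64.5 and 30.5 in SD7, 18.4, 17.0 and 31.2 in LD21, and 7.98, 9.82 and 4.28 in SD21. VIT_03s0038g01280 (310 bp, 910866 to 911175) had 11.0, 19.3 and 17.3 FPKM in LD7, 31.4, 34.4 and 20.7 in SD7, 15.9, 16.1 and 26.6 in LD21, and 3.05, 6.12 and 0.932 in SD21. VIT_03s0038g01270 (584 bp, 908816 to 909399) had 11.7, 16.0 and 19.5 FPKM in LD7, 23.7, 34.0 and 20.1 in SD7, 10.7, 10.9 and 11.2 in LD21, and 1.91, 5.91 and 1.83 in SD21. All 3 were called lower in SD21, with the largest fold change at VIT_03s0038g01280 (-2.39 ± 0.42, log2 ± SE). VIT_03s0038g01300 (326 bp, 917423 to 917748), the last of the run, was also called lower, at 5.07, 2.64 and 3.02 FPKM in LD21 and 0.633, 0 and 0 in SD21.

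Not all loci of the second run passed the test at day 21. VIT_03s0038g01180 (322 bp, 888634 to 888955) had 5.42, 6.26 and 5.71 FPKM in LD7, 8.87, 21.3 and 10.7 in SD7, 2.45, 2.38 and 2.34 in LD21, and 1.63, 2.66 and 0.212 in SD21. Its LD21 libraries were already below all LD7 libraries and overlapped SD21 (-0.58 ± 0.37, log2 ± SE). VIT_03s0038g01150 (0.21 ± 0.32) and VIT_03s0038g01290 (-1.34 ± 0.68) were not called either. Without SD21 replicate 2, VIT_03s0038g01180 (adjusted p = 0.0437) and VIT_03s0038g01080 in the first run (adjusted p = 0.0363, limma) were called lower, which made 22 loci.

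Most loci of the first run were lower at day 21 than at day 7 under the long photoperiod too. In LD21 against LD7, 6 of 27 loci of the window were called lower, against 7.63% of all tested genes, and 1 was called higher, against 10.5%. Of the 6, 5 were in the first run, where the median log2 fold change was -1.06, and none was in the second run, where it was -0.10. The sixth was VIT_03s0038g01320. Over all tested genes the median was 0.11. The difference between the runs was not tested.

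VIT_03s0038g01110 (542 bp, 866356 to 866897) was the most abundant locus of the first run in SD7, with 38.2, 30.0 and 42.3 FPKM in LD7, 45.7, 64.4 and 42.4 in SD7, 19.1, 15.9 and 16.8 in LD21, and 10.8, 10.0 and 7.13 in SD21. It fell over time in long days (-1.04 ± 0.19, log2 ± SE) and was lower again in SD21 than in LD21 (-0.84 ± 0.19), with no overlap in either comparison. VIT_03s0038g01100 (270 bp, 864607 to 864876) had 29.7, 29.6 and 45.9 FPKM in LD7, 36.1, 41.7 and 37.3 in SD7, 12.2, 13.9 and 23.2 in LD21, and 7.23, 9.06 and 4.92 in SD21. VIT_03s0038g01120 (268 bp, 867889 to 868156) had 19.9, 19.4 and 30.6 FPKM in LD7, 22.0, 23.9 and 22.6 in SD7, 9.26, 6.39 and 12.2 in LD21, and 4.19, 6.36 and 2.95 in SD21. Both were called lower in LD21 than in LD7 (-1.07 ± 0.26 and -1.25 ± 0.26), and their day 7 groups overlapped.

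VIT_03s0038g01130 (2796 bp, 869585 to 872380), the longest locus of the first run, stood at 20.3, 17.5 and 26.7 FPKM in LD7, 27.5, 37.0 and 28.8 in SD7, 12.7, 10.8 and 13.4 in LD21, and 8.28, 7.61 and 5.09 in SD21. Its SD7 libraries lay above its LD7 libraries, and it had -0.74 ± 0.20 (log2 ± SE) in LD21 against LD7 and -0.75 ± 0.20 in SD21 against LD21. VIT_03s0038g01090 (405 bp, 862994 to 863398) had 35.1, 18.4 and 25.3 FPKM in LD7, 24.7, 37.5 and 25.4 in SD7, 8.97, 6.88 and 12.5 in LD21, and 11.5, 13.5 and 7.66 in SD21. It was lower at day 21 than at day 7 in either photoperiod, with -1.37 ± 0.28 in long and -1.35 ± 0.28 in short days (log2 ± SE), and its LD21 and SD21 libraries overlapped. The call of VIT_03s0038g01100 in LD21 against LD7 was lost without LD7 replicate 3 or LD21 replicate 1 or 2 (adjusted p up to 0.0753, limma). That of VIT_03s0038g01130 was lost without LD7 replicate 1 or 3 or LD21 replicate 1 or 2 (up to 0.104). Over all tested genes the count called lower fell too, from 1667 to between 768 and 1278 without 1 of these libraries. VIT_03s0038g01180 of the second run was called lower in LD21 than in LD7 without SD21 replicate 3 (adjusted p = 0.0291, limma) and with only the groups compared (0.0116).

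**Figure D4:**
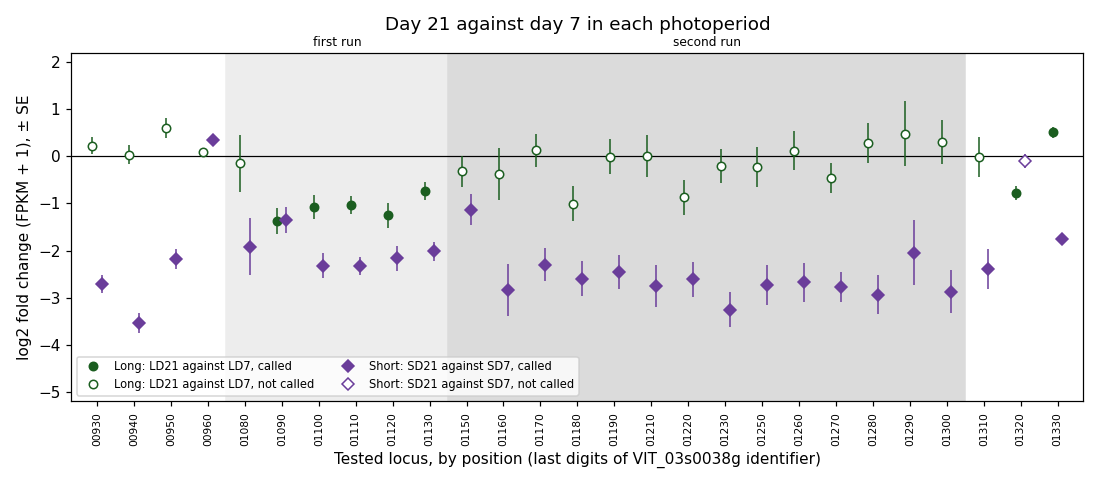
Log2 fold change of FPKM + 1 (vertical axis, ± SE) for LD21 against LD7 (circles) and SD21 against SD7 (diamonds) at the 27 tested loci in order of position (horizontal axis), with filled symbols for loci called by limma. Under long days 5 of 6 loci of the first run are filled below 0 and none of the second run is filled, while under short days all 20 loci of the runs are filled below 0.

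Between days 7 and 21 of the short photoperiod nearly all expressed loci of the window fell. In SD21 against SD7, 25 of 27 loci were called lower, against 37.7% of all tested genes, and 21 of them were at least 4-fold lower, against 6.26%. VIT_03s0038g00960 alone was called higher, where 23.4% of all tested genes were, and VIT_03s0038g01320 was not called. The median log2 fold change was -2.40, against -0.20 over all tested genes. All 20 loci of the runs were called lower, and at all 20 every SD21 library was below every SD7 library, which held for 39.7% of all tested genes. The fold changes in the runs ran from -3.25 ± 0.36 (log2 ± SE) at VIT_03s0038g01230 to -1.13 ± 0.32 at VIT_03s0038g01150. This comparison shares its SD7 libraries with SD7 against LD7 and its SD21 libraries with SD21 against LD21. The count of lower loci was 23 without SD7 replicate 2, where VIT_03s0038g01080 (adjusted p = 0.0617, limma) and VIT_03s0038g01290 (0.0789) lost their calls. VIT_03s0038g01290 also lost its call without SD7 replicate 1 (0.0549) or SD21 replicate 1 or 3 (0.0606 and 0.0825), and with only the groups compared VIT_03s0038g00960 (0.0564) and VIT_03s0038g01080 (0.0702) lost theirs, which left 24 loci lower.

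The last 3 loci of the window did not move together. VIT_03s0038g01310 (6234 bp, 921732 to 927965) had its highest group mean in SD7 and its lowest in SD21, with 4.88, 5.39 and 7.45 FPKM in LD7, 12.7, 17.9 and 6.40 in SD7, 8.69, 5.76 and 3.75 in LD21, and 0.882, 3.30 and 0.613 in SD21. VIT_03s0038g01320 (17832 bp, 930984 to 948815), the longest locus, had its lowest group mean in LD21, with 25.0, 22.4 and 20.8 FPKM in LD7, 20.8, 18.9 and 19.1 in SD7, 10.6, 12.9 and 15.2 in LD21, and 17.8, 16.0 and 21.6 in SD21. It fell over time in long days (-0.78 ± 0.15, log2 ± SE) and was the only locus called higher in SD21 than in LD21 (0.49 ± 0.15). VIT_03s0038g01330 (1473 bp, 955034 to 956506) had 213, 194 and 177 FPKM in LD7, 154, 195 and 179.8 in SD7, 256, 275 and 299.7 in LD21, and 48.6, 54.0 and 51.3 in SD21. It was the only locus called higher in LD21 than in LD7 (0.51 ± 0.12). That call was lost with median-ratio scaling (adjusted p = 0.0760, limma) and without LD7 replicate 2 (0.0601), LD7 replicate 3 (0.0790) or LD21 replicate 2 (0.0615). Its log2 fold change without these libraries was 0.51, 0.44 and 0.51. Over all tested genes the count called higher fell too, from 2296 to 730, 593 and 570. VIT_03s0038g00950 gained a call as higher in LD21 against LD7 when replicate 3 of LD21 (adjusted p = 0.0288, limma) or of SD21 (0.0339) was left out. In SD21 VIT_03s0038g01330 was lower than in LD21, with a log2 fold change of -2.41 ± 0.12.

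The photoperiod effect differed between the days at most expressed loci of the window. The difference, SD21 minus LD21 less SD7 minus LD7, was called toward a lower effect at day 21 at 21 of 27 loci, against 35.5% of all tested genes, and toward a higher effect at 1, against 19.6%. In either direction 22 of 27 loci were called, against 55.1%. The median difference was -2.39 on the log2 scale, against -0.29 over all tested genes. In the second run 13 of 14 loci were called, with a median of -2.49, and in the first run 3 of 6, with a median of -1.26. VIT_03s0038g01320 was the locus called toward a higher effect. With quantile normalization or median-ratio scaling 18 loci were called toward a lower and 2 toward a higher effect. Of all tested genes 26.6% were then called lower and 25.7% higher with quantile normalization, and 26.8% and 26.2% with median-ratio scaling. The lost calls were those of VIT_03s0038g01100, VIT_03s0038g01180 and VIT_03s0038g01290, and VIT_03s0038g00960 was gained. With a pseudocount of 0.1 the calls of VIT_03s0038g01180 (adjusted p = 0.0580, limma) and VIT_03s0038g01290 (0.0517) were lost, which left 19 loci lower. The call of VIT_03s0038g01180 was also lost without SD7 replicate 2 (adjusted p = 0.0520, limma) and that of VIT_03s0038g01290 with no filter on low values (0.0539) and without any 1 of 8 libraries (replicates 1 and 2 of LD7 and SD7, and replicates 1 and 3 of LD21 and SD21, up to 0.103). That of VIT_03s0038g01120 was gained without LD7 replicate 3, LD21 replicate 2 or SD21 replicate 2, and that of VIT_03s0038g01080 without SD21 replicate 2.

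The genes on either side of the window gave other values than its loci in the same fit. In SD21 against LD21, 43.7% of all tested genes were called lower and 24.6% higher. Of 27 tested genes in the 230 kb before the window, 11 were called lower (40.7%) and 6 higher (22.2%), with a median log2 fold change of -0.14. Of 14 tested genes in the 230 kb after it, 3 were called lower (21.4%) and 5 higher (35.7%), with a median of 0.22. At day 7 the medians in SD7 against LD7 were -0.12 before and 0.23 after. Of the 316 tested genes outside the window with the same identifier stem, 148 were called lower and 83 higher in SD21 against LD21. These were 46.8% and 26.3%, near the shares of all tested genes, with a median of -0.36. At the edges, VIT_03s0038g00920 (722302 to 732914) reaches into the window and is no member, with 4.14 ± 0.46 FPKM (SD, n = 3) in LD21 and 6.76 ± 0.88 in SD21. VIT_03s0038g01360 (964890 to 966169), the first gene after the window, had 4.86 ± 1.09 and 5.15 ± 0.37. The nearest members inside were VIT_03s0038g00930 and VIT_03s0038g01330, given above.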

How the data were processed

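Shoot tip RNA was sequenced in 12 libraries (3 per group) as 43 bp reads on a HiScanSQ instrument, per the labels' protocols. The authors deposited FPKM per gene, per the file headers. The submitters' processing notes name Cufflinks 2.2.1, TopHat2 2.0.13, Bowtie2 2.2.4, cutadapt 1.8.1 and FastQC 0.11.3. Not given in the sources used here are the genome build, the annotation, and how strand and shared reads were treated. The labels give separate replicates of 5 vines, so p-values measure the spread between such pools.

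Files were joined on the identifier. SD21 replicate 3 carries the column heading of replicate 2, but its values differ from that library and it was kept as replicate 3. The RefSeq table of assembly EGFV_Vit.rip_1.0 matched 0 identifiers, so no names, sequences or pathway lists were used.

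The 21848 genes with at least 1 FPKM in 3 or more libraries were fitted on log2(FPKM + 1), with 4 group means over all 12 libraries, in limma 3.58.1 (R 4.3.3, eBayes with trend and robust), and adjusted over all of them by Benjamini-Hochberg. The pseudocount of 1 understates changes of low genes. The model was checked on simulated data with normal errors and changes in few genes, which does not test it under changes as broad as those in SD21. Relative depth came from steps of low genes (mean below 0.3 FPKM), and FPKM allow no counting interval. The members, groupings and tests were chosen with earlier results of these data known. Loci with a group mean of 5 FPKM or more, the 24 highest of them, are given in every library. Python 3.11.15 and matplotlib 3.10.9 were used. Alternatives were quantile and median-ratio scaling, a pseudocount of 0.1, no filter, eBayes without trend, fits on only the compared groups, a replicate block, leaving out every library in turn, calls of at least 2-fold and loci overlapping the window.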

Additional observations from a re-analysis of the deposited data

Results flagged for a closer look

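The difference between the photoperiod effects of the days passed limma's test at 20 of the 24 loci given in every library, against 55.1% of all tested genes, and each value below is that difference on the log2 scale (SD21 minus LD21, less SD7 minus LD7). Before the runs it was -2.93 at VIT_03s0038g00930, -3.57 at VIT_03s0038g00940 and -2.79 at VIT_03s0038g00950. In the first run it was -1.25 at VIT_03s0038g01100, -1.28 at VIT_03s0038g01110 and -1.27 at VIT_03s0038g01130. At the loci of 289 bp in the second run it was -2.47 at VIT_03s0038g01160, -2.42 at VIT_03s0038g01170, -2.77 at VIT_03s0038g01210, -3.05 at VIT_03s0038g01230 and -2.52 at VIT_03s0038g01250. At the other loci of the second run it was -1.59 at VIT_03s0038g01180, -2.45 at VIT_03s0038g01190, -1.74 at VIT_03s0038g01220, -2.78 at VIT_03s0038g01260, -2.31 at VIT_03s0038g01270 and -3.21 at VIT_03s0038g01280. After the runs it was -2.39 at VIT_03s0038g01310, 0.69 at VIT_03s0038g01320 and -2.27 at VIT_03s0038g01330. At 19 of these 20 the effect at day 21 was the lower, and 35.5% of all tested genes were called in that direction.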

How the results depend on the processing

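The counts of loci called lower stayed within 1.5 times the reported count in every comparison under each alternative. Counts of loci called higher, which were 0 or 1, moved more. In SD21 against LD21 it was 2 with quantile normalization, median-ratio scaling or loci overlapping the window, and 0 with a 2-fold limit. For the difference between the days it was 2 with either rescaling and 0 with a 2-fold limit. In LD21 against LD7 it was 0 with median-ratio scaling, where 5.42% of all tested genes were called higher, or with a 2-fold limit, and 0 to 2 with 1 library left out. In SD21 against SD7 it was 0 with only the groups compared or a 2-fold limit, and 2 with loci overlapping the window. The summed FPKM gave a log2 ratio of -1.70 in SD21 against LD21, and -1.36 with median-ratio scaling and -1.36 without VIT_03s0038g01330. In LD21 against LD7 the log2 ratio of 0.03 changed sign, to -0.0305 with quantile normalization, -0.0777 with median-ratio scaling and -0.22 without VIT_03s0038g01330, and it ran from -0.0237 to 0.10 with 1 library left out. The cause was not tested beyond the construction of these alternatives. With the replicate block, 20 loci were called lower and 1 higher in SD21 against LD21, 6 and 1 in LD21 against LD7, 25 and 1 in SD21 against SD7, and 21 and 1 for the difference, and no call changed. Deviations of same-numbered libraries from their group means were at most weakly correlated, from -0.0685 to 0.203, the highest being replicate 1 of SD21 and LD21. Correlations of differently numbered libraries ran from -0.168 to 0.146. Without a count of reads, the depth limits the loci near 0 and the SD21 values below 1 FPKM most.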
